A study of Mus musculus with 16 samples.

Results

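The mitosis genes are a set of 42 genes whose products drive or carry out cell division, chosen by name as a functional module and compared here across mouse B cells of 2 compartments and 2 genotypes. A value was obtained for 41 of them, out of 15129 named genes tested. The exception, the cyclin gene Ccnb1, had no probe set under its name in the platform annotation and was not analysed here. RNA from B1a cells of the peritoneal cavity and from splenic B cells (Bs) was hybridised to Affymetrix Mouse Genome arrays, 4 arrays for each of 4 groups. B6_B1a and B6_Bs came from C57BL/6 (B6) mice, and Sle2c1_B1a and Sle2c1_Bs from B6.Sle2c1 mice, all at 5 months of age and with no treatment named. The B6.Sle2c1 strain is a congenic line that carries a lupus susceptibility interval of NZM2410 origin on the B6 background, so the whole interval differs between the genotypes and not a single gene. The series title names 1 gene of that interval, Cdkn2c, which encodes a cell cycle inhibitor (p18INK4c) that blocks the kinases Cdk4 and Cdk6.

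Mitosis is run by cyclin A and cyclin B bound to Cdk1, and by the Aurora and Polo-like kinases. Chromosomes are held to the spindle by kinetochores, the spindle assembly checkpoint delays separation until every kinetochore is attached, and the anaphase-promoting complex (APC/C) then marks cyclins and securin for destruction. The genes for these proteins are switched on together late in the cell cycle and are nearly silent in resting cells, so their transcripts serve as a measure of dividing cells. Most mature B cells are resting. Dividing B cells occur in germinal centres and among plasmablasts, and B1a cells are known to renew themselves in adult mice. In bulk samples such as these, fewer dividing cells and less transcript per cell cannot be told apart.

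Levels are in units of the authors' deposited score, a log-like signal whose base and scaling are not given in the sources used here, so differences are differences in score and not fold changes. Values under 0.495 units carry no level and were raised to that value, called the floor. Of the 41 genes, 15 lay above the floor on all 16 arrays and 26 lay at it on at least 1 array. Each comparison was tested with limma over 22727 features, and a gene with an adjusted p under 0.05 is called higher or lower. A difference is a lower bound of its size where 1 group has no array above the floor and the other has every array above it. The labels do not say whether the 4 samples of a group came from separate animals, although the design text calls them biological replicates, so p-values measure the spread between these samples.

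The labels were checked against marker genes. Of 9 B1a markers, 6 were higher in B1a than in Bs in B6 and 5 in Sle2c1, among them Plscr1, Zbtb32 and Ahr, and Cd5 lay at the floor on all 8 Bs arrays. Of 5 splenic B cell markers tested, 3 were lower and 1 higher in B1a in B6, and 4 were lower and 0 higher in Sle2c1. Among them, the follicular and marginal zone receptors Cr2 and Fcer2a were lower in B1a by 2.09 and 1.89 units in B6. None of the 7 B cell genes tested was at the floor throughout a group, although Pax5 was at it on 2 or 3 of the 4 arrays in each. Of these 7 genes, 4 were lower in B1a in B6 (median -0.172) and 5 in Sle2c1 (median -0.185), and 0 were higher. B1a preparations, per the labels, held 80% B220int CD5+ cells after 2 h of adherence in 10% serum, and Bs preparations over 90% B220hi cells with no such culture. Cell type, tissue and handling therefore cannot be told apart in any comparison of B1a with Bs. Some arrays stood apart from their group on the mitosis genes. B6_Bs 3 was the lowest of its 4 arrays in 21 genes and the highest in 11, and B6_B1a 4 was the lowest of its group in 18.

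Late cell cycle promoters are known for 2 short sequences, which is why 9 of them are shown. The cell cycle genes homology region (CHR) is the element through which the DREAM and MuvB complexes bind, and the CCAAT box is the element of the factor NF-Y. In RefSeq's promoter table of GRCm38.p6 (250 bases before to 50 after the start), 37 of the 42 genes had an entry. The letters TTTGAA or TTCAAA, the CHR on either strand, were present in 27 of these 37 (73.0%), against 20.2% of 27025 genes. CCAAT or ATTGG was present in 28 (75.7%, against 41.1%), and 21 (56.8%) held at least 2 such matches, against 13.3%. Both motifs were present in 24 (64.9%), against 8.0% of all genes. A match of 1 motif may overlap a match of the other, and a match is a description of letters, not a binding site.

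The 120 bases before the annotated start are printed below 5' to 3', with every match in capitals. The 9 genes were picked after their values were seen, and for Prc1 the stretch is that of the later of 2 annotated starts. Cdk1 (chr10:69352913-69353032, minus strand), Top2a (chr11:99024190-99024309, minus strand), Cks1b (chr3:89418292-89418411, minus strand), Prc1 (chr7:80294356-80294475, plus strand), Ube2c (chr2:164769809-164769928, plus strand) and Birc5 (chr11:117849117-117849236, plus strand) were lower in B1a than in Bs in both strains. Cks2 (chr13:51645112-51645231, plus strand) had the smallest adjusted p between strains in Bs. Racgap1 (chr15:99651657-99651776, minus strand) and Kif2c (chr4:117178773-117178892, minus strand) were the genes higher in B1a in both strains.
Cdk1: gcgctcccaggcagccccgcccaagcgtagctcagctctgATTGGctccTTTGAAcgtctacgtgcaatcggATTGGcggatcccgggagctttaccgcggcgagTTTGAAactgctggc
Top2a: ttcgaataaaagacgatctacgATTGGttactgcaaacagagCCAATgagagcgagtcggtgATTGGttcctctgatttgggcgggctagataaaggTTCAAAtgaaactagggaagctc
Cks1b: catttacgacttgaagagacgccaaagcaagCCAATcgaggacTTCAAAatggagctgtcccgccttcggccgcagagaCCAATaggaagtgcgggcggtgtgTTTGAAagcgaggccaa
Prc1: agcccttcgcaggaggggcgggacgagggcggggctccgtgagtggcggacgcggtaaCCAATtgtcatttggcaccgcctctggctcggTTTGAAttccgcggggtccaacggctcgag
Ube2c: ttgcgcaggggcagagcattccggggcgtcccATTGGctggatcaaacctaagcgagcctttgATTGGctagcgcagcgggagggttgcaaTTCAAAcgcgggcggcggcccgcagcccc
Birc5: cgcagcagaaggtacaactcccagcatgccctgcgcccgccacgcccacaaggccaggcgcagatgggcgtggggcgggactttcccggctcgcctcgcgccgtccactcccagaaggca
Cks2: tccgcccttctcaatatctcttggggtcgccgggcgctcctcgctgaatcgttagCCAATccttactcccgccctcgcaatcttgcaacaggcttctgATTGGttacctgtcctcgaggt
Racgap1: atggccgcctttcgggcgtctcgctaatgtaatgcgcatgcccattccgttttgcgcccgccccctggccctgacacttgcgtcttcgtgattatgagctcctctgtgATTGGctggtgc
Kif2c: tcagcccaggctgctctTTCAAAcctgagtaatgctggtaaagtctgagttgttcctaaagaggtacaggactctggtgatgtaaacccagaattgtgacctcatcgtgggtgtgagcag
The first 5 stretches carry a CHR within 30 bases of the start, at -15 in Cdk1, -23 in Top2a, -17 in Cks1b, -30 in Prc1 and -29 in Ube2c. Those of Birc5, Cks2 and Racgap1 hold no CHR letters in this window, and that of Kif2c holds its only match at -103, with no CCAAT box. Racgap1 does carry TTTGAA at position 5 after the start, so its lack of a match here comes from where the printed stretch ends.

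The comparison of B1a with Bs asks how far the peritoneal and splenic populations differ in mitotic transcripts. In B6 mice, 27 of the 41 mitosis genes were lower in B1a than in Bs, where 12.1% of all features were lower, and 2 genes were higher, where 8.8% of all features were. In Sle2c1 mice 22 were lower (14.4% of all features) and 3 higher (10.7%). The median difference over the 41 genes was -0.605 units in B6 and -0.365 in Sle2c1, against -0.05 and -0.042 over all features. The mean over the 41 genes ran from 1.68 to 1.78 units on the 4 B6_Bs arrays and from 1.11 to 1.27 on B6_B1a, and from 1.43 to 1.51 on Sle2c1_Bs and 0.98 to 1.28 on Sle2c1_B1a. No B1a array reached any Bs array on this mean. The counts depend on how values near the floor are treated. With no floor, 12 and 9 genes were lower, and among genes above the floor on every array compared the counts were 17 of 22 and 12 of 16. The 12.1% and 14.4% of all features do not apply to these settings, whose own shares are not given here. Across all alternatives other than single arrays left out, 1794 to 3468 features were lower in B6 and 2341 to 4093 in Sle2c1.

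**Figure D1:**
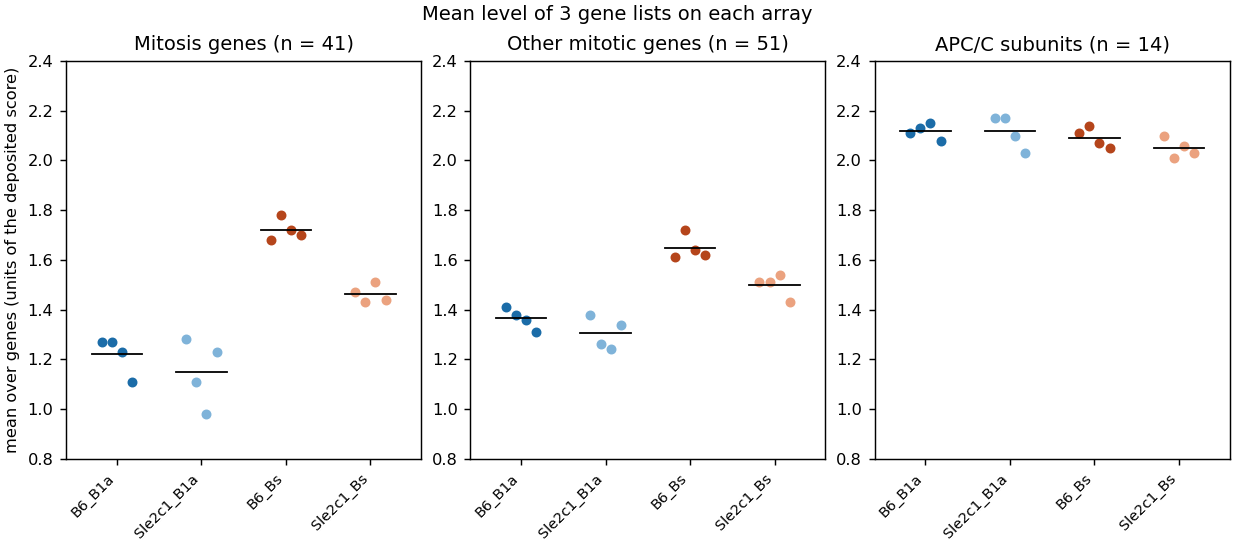
Mean level of the mitosis genes (n = 41), of other mitotic genes (n = 51) and of APC/C subunits (n = 14) on each array, in units of the deposited score (vertical axis), by group (horizontal axis). The APC/C list includes Fzr1 and Ube2s. Points are arrays and black lines are group means, to be read within a panel. The mitosis genes ran from 1.68 to 1.78 on B6_Bs and from 1.43 to 1.51 on Sle2c1_Bs, and all B1a arrays lay at or under 1.28.

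The calls were shared widely by the 2 strains, whose arrays are separate samples. The 21 genes lower in B1a in both strains are 21 of 27 in B6 and 21 of 22 in Sle2c1. Ccnb2, Nuf2, Aurkb, Hmmr, Anln and Cdca8 were called lower in B6 alone and Aspm in Sle2c1 alone, but the test of the difference between strains called none of them. Another 10 genes were called in neither strain (Ndc80, Aurka, Plk1, Cenpa, Cenpf, Kif4, Melk, Spag5, Cdca3 and Foxm1). The 4 B1a arrays did not overlap the 4 Bs arrays for 26 lower genes in B6 (11.5% of all features) and 16 in Sle2c1 (15.3%), and the reverse held for 1 gene in B6 (10.5%) and 3 in Sle2c1 (9.83%). Other probe sets gave a partial second reading. In B6, 23 of 25 other probe sets of the lower genes pointed the same way and 12 of them were called, and in Sle2c1 14 of 22 did, with 6 called.

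Mki67 encodes the Ki-67 protein that coats mitotic chromosomes and is the standard histological marker of cycling cells. It read 2.23, 2.49, 2.54 and 2.52 units on B6_Bs arrays 1 to 4 and 1.44, 1.60, 1.65 and 1.54 on B6_B1a. On the Sle2c1 arrays it read 2.09, 2.24, 2.43 and 1.99 in Bs and 1.75, 1.09, 1.19 and 1.78 in B1a. Every Bs array lay above every B1a array of both strains. Mki67 was lower in B1a by 0.89 units in B6 (SE 0.151, adjusted p = 0.000801) and by 0.74 in Sle2c1 (adjusted p = 0.00256). Top2a encodes topoisomerase II alpha, which untangles sister chromatids. It read 3.25, 3.23, 3.03 and 3.10 units in B6_Bs and 2.70, 2.71, 2.70 and 2.41 in B6_B1a. The Sle2c1 arrays gave 2.85, 2.74, 2.84 and 2.76 in Bs and 2.58, 2.12, 2.20 and 2.36 in B1a. The groups were again separate in each strain, and Top2a was lower in B1a by 0.52 units in B6 (SE 0.099, adjusted p = 0.00186) and by 0.48 in Sle2c1 (adjusted p = 0.00255).

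Among the cyclins, Cdk1 and their partners, 4 of 7 genes were lower in B1a in B6 and 3 in Sle2c1. Cyclin A2 (Ccna2), which acts with its kinase from S phase into early mitosis, read 2.70, 2.68, 2.43 and 2.68 units in B6_Bs and 2.03, 1.81, 2.02 and 1.64 in B6_B1a. In Sle2c1 it read 2.22, 2.25, 2.14 and 2.28 in Bs and 2.17, 1.84, 1.66 and 1.76 in B1a. The groups were far apart in B6 and met in Sle2c1, where B1a array 1 exceeded the lowest Bs array. Ccna2 was lower by 0.75 units in B6 (SE 0.113, adjusted p = 0.000296) and by 0.36 in Sle2c1 (adjusted p = 0.0294). Cdk1, the kinase that starts mitosis, read 1.87, 2.02, 1.76 and 1.96 units in B6_Bs and 1.03, 1.36 and 1.12 on 3 B6_B1a arrays, with the fourth at the floor. It read 1.59, 1.45, 1.43 and 1.48 in Sle2c1_Bs, and 3 of 4 Sle2c1_B1a arrays were at the floor, the other at 1.04. The differences were -0.90 in B6 (SE 0.160, adjusted p = 0.00114) and -0.86 in Sle2c1 (adjusted p = 0.0013). With no floor neither passed (adjusted p = 0.441 and 0.164).

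Cks1b and Cks2 encode the small subunits that dock Cdk1 on phosphorylated substrates, and their patterns differed. Cks1b read 2.70, 2.79, 2.67 and 2.80 units in B6_Bs and 2.11, 2.36, 2.16 and 1.91 in B6_B1a, a difference of -0.60 (SE 0.107, adjusted p = 0.00105). In Sle2c1 it read 2.48, 2.4, 2.52 and 2.52 in Bs and 2.43, 2.14, 1.89 and 2.09 in B1a, a difference of -0.34 (adjusted p = 0.0304). Thus B1a array 1 of Sle2c1 lay inside the range of the Bs arrays. Cks2 read 2.69, 2.79, 2.64 and 2.68 units in B6_Bs and 2.73, 2.67, 2.63 and 2.64 in B6_B1a, groups that overlapped almost fully (difference -0.03, adjusted p = 0.765). In Sle2c1 it read 2.41, 2.35, 2.43 and 2.28 in Bs and 2.76, 2.56, 2.53 and 2.52 in B1a. Every B1a array was the higher, and Cks2 was called higher by 0.22 units (SE 0.0638, adjusted p = 0.0192).

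Cyclin B2 (Ccnb2), a partner of Cdk1 at the Golgi, read 1.66, 1.83, 0.96 and 1.61 units in B6_Bs, and 0.68 and 1.14 on 2 B6_B1a arrays with the other 2 at the floor. The single overlap between those groups came from B6_Bs 3. Ccnb2 was lower in B6 B1a by 0.81 units (SE 0.222, adjusted p = 0.0192), a call that ended without B6_B1a 1, B6_B1a 4, B6_Bs 2 or B6_Bs 4 (adjusted p = 0.0559, 0.0521, 0.0648 and 0.0501). It also ended after quantile normalization (adjusted p = 0.0506) and with no floor (adjusted p = 0.376). In Sle2c1, 3 of 4 Bs arrays lay at the floor (the other at 1.10), as did 2 of 4 B1a arrays (the others at 1.17 and 0.96), and the difference was 0.13 (adjusted p = 0.693). Cdca3, an F-box-like factor needed for mitotic entry, differed by -0.46 in B6 (adjusted p = 0.0629) and -0.20 in Sle2c1. Foxm1, the transcription factor that activates many genes of this set, was at the floor throughout B6_B1a and above it on 2 B6_Bs arrays, reading 1.65 units on array 3 and 0.52 on array 4.

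**Figure D2:**
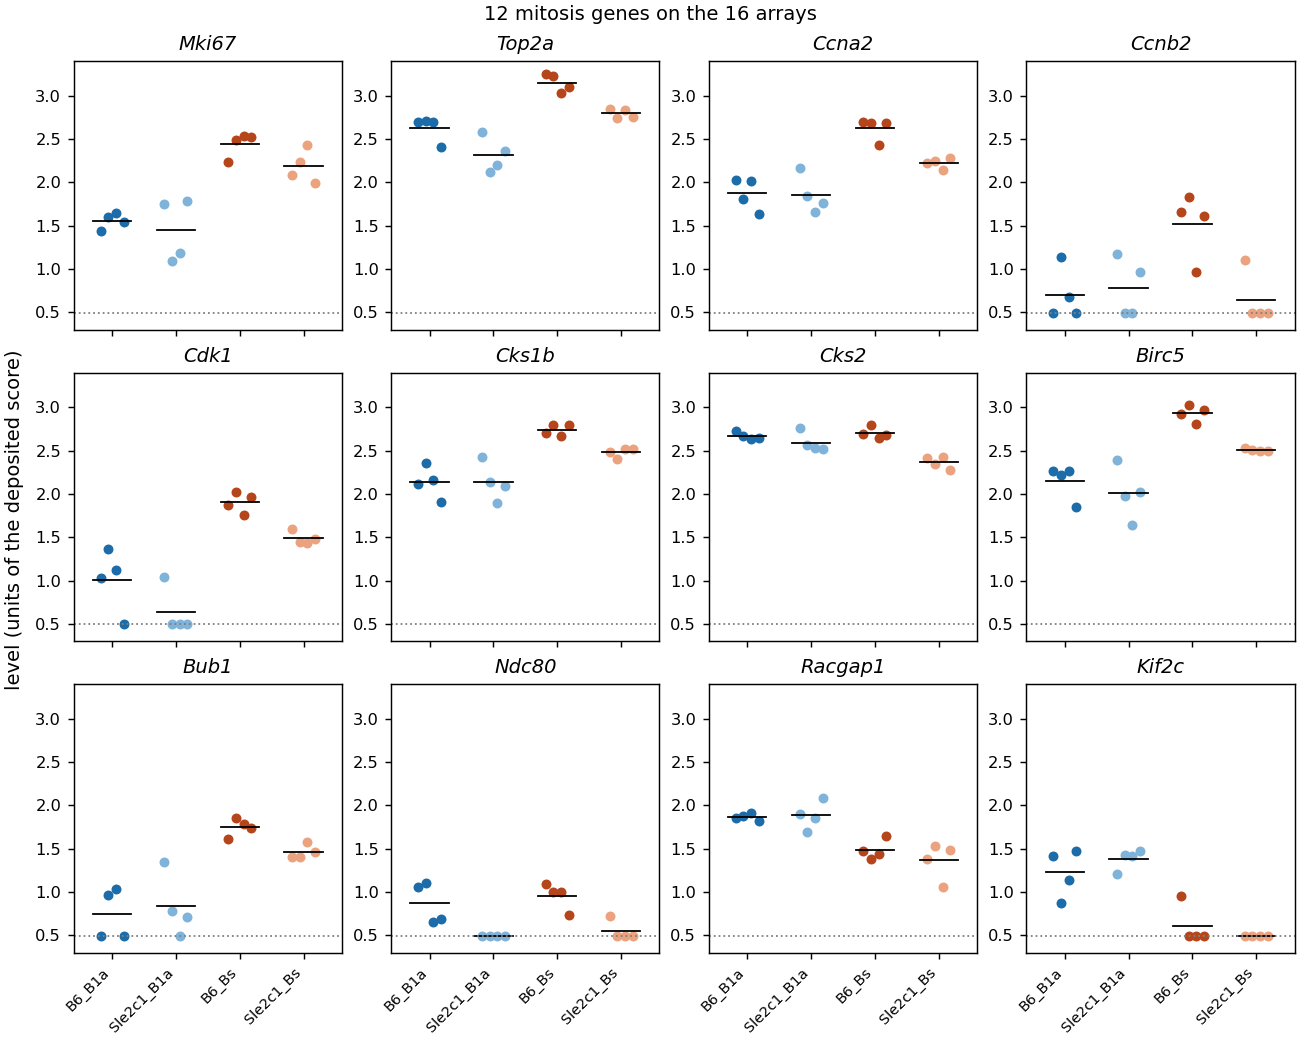
Levels of 12 mitosis genes on the 16 arrays, in units of the deposited score (vertical axes) by group (horizontal axes). Points are arrays, black lines group means and the dotted line the floor of 0.495. Mki67 and Top2a lie higher on all Bs arrays than on all B1a arrays of the same strain, Kif2c lies at the floor on 7 of 8 Bs arrays, and Ndc80 at the floor throughout Sle2c1_B1a.

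All 7 genes of the spindle checkpoint and the APC/C were lower in B1a in both strains. Bub1, a checkpoint kinase at the kinetochore, read 1.61, 1.86, 1.79 and 1.74 units in B6_Bs, while 2 B6_B1a arrays read 0.97 and 1.04 and 2 lay at the floor. It read 1.40, 1.40, 1.58 and 1.46 in Sle2c1_Bs and 1.35, 0.78 and 0.71 in Sle2c1_B1a, with array 3 at the floor. No arrays overlapped in either strain. The differences were -1.0 (SE 0.165, adjusted p = 0.000622) and -0.63 (adjusted p = 0.0128). Bub1b encodes BubR1, part of the complex that inhibits Cdc20. It read 1.43, 1.58, 1.37 and 1.5 units in B6_Bs and 0.81, 0.75, 1.10 and 0.72 in B6_B1a. In Sle2c1 it read 1.13, 1.34, 1.37 and 1.49 in Bs and 0.88 and 0.94 on 2 B1a arrays, with arrays 1 and 4 at the floor. Bub1b, too, was separate between cell types in each strain, with differences of -0.62 (SE 0.120, adjusted p = 0.002) and -0.63 (adjusted p = 0.00144), of which the latter did not pass with no floor (adjusted p = 0.182).

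The other checkpoint kinase, Ttk (Mps1), differed by -1.0 in B6 and -0.99 in Sle2c1, and Mad2l1, the Mad2 protein that captures Cdc20, by -0.75 and -0.83. Ube2c, the ubiquitin-conjugating enzyme of the APC/C, differed by -0.75 and -0.55. Cdc20, the activator of the APC/C in mitosis, differed by -0.53 in both strains, although its probe set is of a type that can also bind similar transcripts. Securin (Pttg1), the last substrate to be destroyed before the chromatids part, showed the smallest difference of the 7, -0.19 in B6 and -0.28 in Sle2c1. Adjusted p of these 5 genes ran from 0.00215 to 0.0406 in B6 and from 0.00313 to 0.0268 in Sle2c1.

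Of the 6 mitotic kinases and chromosomal passenger genes, 3 were lower in B1a in B6 and 1 in Sle2c1. Survivin (Birc5), a passenger subunit that brings Aurora B to the centromere, read 2.92, 3.03, 2.81 and 2.97 units in B6_Bs and 2.27, 2.22, 2.27 and 1.85 in B6_B1a. In Sle2c1 it read 2.53, 2.51, 2.49 and 2.49 in Bs and 2.39, 1.98, 1.64 and 2.02 in B1a. The Bs arrays were the higher throughout, by 0.78 units in B6 (SE 0.131, adjusted p = 0.000708) and 0.50 in Sle2c1 (adjusted p = 0.0125). Borealin (Cdca8), another passenger subunit, read 1.73, 1.98, 2.43 and 2.12 units in B6_Bs and 1.28, 1.46, 1.39 and 1.44 in B6_B1a. It read 1.93, 1.71, 1.91 and 1.86 in Sle2c1_Bs and 1.62, 1.23, 1.57 and 1.74 in Sle2c1_B1a. Only the B6 groups were fully separate, and Cdca8 was lower in B6 (-0.67, adjusted p = 0.00248) but not called in Sle2c1 (-0.31, adjusted p = 0.1). Aurora B itself (Aurkb) differed by -0.66 in B6 (adjusted p = 0.005) and -0.40 in Sle2c1 (adjusted p = 0.0594). Aurora A (Aurka) and Plk1, which build and mature the spindle poles, lay at the floor on all 4 Sle2c1_Bs arrays and on 3 of 4 arrays in each B1a group, so they carry little information.

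At the kinetochore, 2 of 5 genes were lower in B1a in B6 and 1 in Sle2c1. Cenpe, a motor that moves chromosomes to the spindle equator, was at the floor on each B6_B1a array and at 1.04 to 1.98 units on B6_Bs, a difference of -1.075 that is a lower bound of its size (adjusted p = 0.00413). In Sle2c1 it differed by -0.93 (adjusted p = 0.00881). Nuf2, which forms the microtubule-binding complex with Ndc80, differed by -0.74 in B6 (adjusted p = 0.0097) and -0.36 in Sle2c1 (adjusted p = 0.159). Ndc80, its partner, differed by -0.08 and -0.06. The centromeric histone Cenpa differed by -0.14 and -0.17, and the outer kinetochore protein Cenpf by -0.17 and 0.18, with none of these passing.

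Of the 8 spindle genes, 4 were lower and 1 higher in B1a in each strain. The plus-end motor Kif11, which pushes the spindle poles apart, differed by -1.07 in B6 (adjusted p = 0.00839) and -0.77 in Sle2c1 (adjusted p = 0.0386). Tpx2, the activator of Aurora A, differed by -0.65 and -0.74, and Nusap1, a bundler of microtubules near chromatin, by -0.64 and -0.59, all called. The spindle pole protein Aspm read 1.82, 2.05, 2.4 and 1.85 units in B6_Bs and 1.68, 1.62, 1.58 and 1.3 in B6_B1a. On the Sle2c1 arrays it read 1.61, 1.67, 1.95 and 1.65 in Bs and 1.57, 1.01 and 0.93 in B1a, with array 3 at the floor. The cell types did not overlap in either strain, yet Aspm was called only in Sle2c1 (-0.72, adjusted p = 0.0127, against -0.48 and adjusted p = 0.0842 in B6).

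Kif2c and Racgap1 went the other way. Kif2c encodes MCAK, a kinesin that takes microtubules apart at the centromere, and read 1.42, 0.87, 1.14 and 1.48 units in B6_B1a and 1.21, 1.43, 1.42 and 1.47 in Sle2c1_B1a. B6_Bs 1 read 0.96 and the other 7 Bs arrays lay at the floor. Kif2c was higher in B1a by 0.62 units in B6 (SE 0.131, adjusted p = 0.00424) and by at least 0.89 in Sle2c1 (adjusted p = 0.000193). Racgap1, the GTPase-activating subunit of centralspindlin in dividing cells, read 1.85, 1.88, 1.91 and 1.82 units in B6_B1a and 1.90, 1.69, 1.86 and 2.09 in Sle2c1_B1a. In Bs it read 1.48, 1.38, 1.44 and 1.65 in B6 and 1.38, 1.53, 1.06 and 1.49 in Sle2c1. Every B1a array lay above every Bs array, and the differences were 0.38 in B6 (SE 0.104, adjusted p = 0.0204) and 0.52 in Sle2c1 (adjusted p = 0.00218). Both calls rest on the probe set used. With the mean of a gene's probe sets, no mitosis gene was higher in B6, and in Sle2c1 Kif2c and Racgap1 differed by 0.33 (adjusted p = 0.0797) and 0.26 (adjusted p = 0.15). Of the 5 other probe sets of this pair, 3 were higher in B6 B1a and 0 were called, and the Kif2c probe set is of a type that can bind similar transcripts. Without B6_B1a 3, B6_Bs 2 or B6_Bs 3, the count of genes called higher in B6 was 1.

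The cytokinesis genes divide the cell after the chromatids have parted, and apart from Racgap1 all 5 were lower in B1a in B6. Kif23, the motor partner of Racgap1 in centralspindlin, read 1.31, 1.44, 1.34 and 1.53 units in B6_Bs and 0.87, 1.18, 0.72 and 1.05 in B6_B1a. In Sle2c1 it read 1.28, 1.02, 1.02 and 1.49 in Bs and 0.82 and 0.61 on B1a arrays 2 and 4, with the others at the floor. The cell types were separate in each strain, and Kif23 was lower by 0.45 (adjusted p = 0.019) and by 0.60 (adjusted p = 0.00257). Ect2, which centralspindlin recruits to the spindle midzone, differed by -0.82 and -0.55, Prc1, which bundles the central spindle, by -0.64 and -0.56, and the motor Kif20a by -0.60 and -0.57, all called. The ring scaffold anillin (Anln) was at the floor throughout B6_B1a and also on B6_Bs 3, so its difference is not a bound. It was lower in B6 by 0.45 (adjusted p = 0.0318), against -0.13 in Sle2c1 (adjusted p = 0.514).

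**Figure D3:**
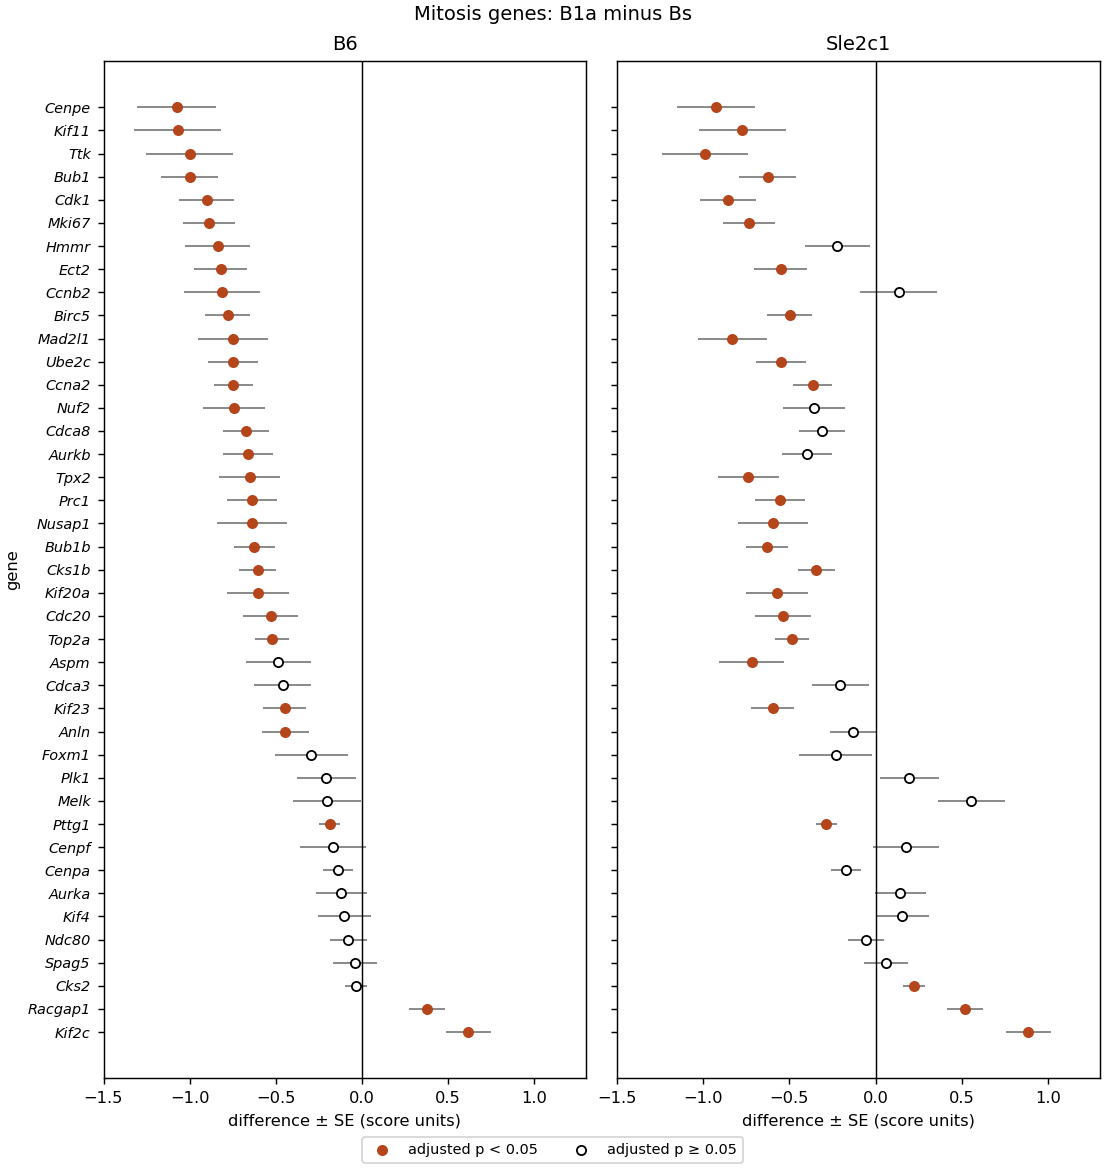
Difference between B1a and Bs (B1a minus Bs, horizontal axes, score units, with standard errors) for each of the 41 genes (vertical axis) in B6 and in Sle2c1. Filled points passed an adjusted p of 0.05. In B6, 27 filled points lie below 0 and 2 above, and in Sle2c1 22 and 3.

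The comparison of Sle2c1 with B6 in Bs cells addresses what the congenic interval does to the main splenic population. No mitosis gene was called, where 0.0308% of all features were lower and 0.123% higher, yet the differences leaned one way. The difference was below 0 in 37 of 41 genes, against 40.9% of all features, and its median was -0.264 units, against 0.015. For 5 of the 37 genes, at the floor on every Sle2c1_Bs array, the difference could not lie above 0. At an unadjusted p under 0.05 there were 15 genes, all with negative differences (1.5% of all features). For 16 genes every Sle2c1_Bs array lay below every B6_Bs array, where 1.15% of all features showed this, and for 0 genes the reverse (1.19%). These 16 were Top2a, Ccna2, Cdk1, Cks1b, Cks2, Cdca3, Bub1, Ube2c, Ndc80, Nuf2, Birc5, Aurkb, Kif4, Nusap1, Hmmr and Prc1. For each, with the arrays taken as unpaired, the exact two-sided permutation p was 0.0286, the minimum for 4 against 4 arrays. Groups that do not overlap have this p by construction, so it adds nothing to the count. Same-numbered Bs arrays of the 2 strains were also taken as pairs, although the labels do not say what the numbers mark. So paired, 21 genes, these 16 among them, were lower in Sle2c1 in each of the 4 pairs (4.66% of all features). Cenpe was the 1 gene higher in each (7.29%). With the pairs kept, an exact two-sided permutation cannot go below p = 0.125, and each of these 22 genes had that value. It follows from the same sign in all 4 pairs, by which they were picked. The genes share these 8 arrays and are not independent observations. Their 12 other probe sets (9 of the 16 genes have any) gave a weaker picture, with 7 negative differences and 0 calls. Rescaling lowered the count without overlap, to 11 genes with median centring (0.99% of all features) and 13 after quantile normalization (1.24%).

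Cks2 had the smallest adjusted p of the 41 in this comparison. Its B6_Bs values of 2.64 to 2.79 units and Sle2c1_Bs values of 2.28 to 2.43 left a gap between the groups, with a difference of -0.33 (SE 0.0638, adjusted p = 0.0734). It passed with no filter on low values (adjusted p = 0.0423), with a floor at 1 unit (adjusted p = 0.0317) and with limma's trend and robust options (adjusted p = 0.0187). Ccnb2 showed the largest difference, -0.87 (SE 0.222, adjusted p = 0.383), but B6_Bs 3 (0.96) lay below Sle2c1_Bs 1 (1.10). Ccna2 and Top2a were separate between the strains, with differences of -0.40 (SE 0.113, adjusted p = 0.54) and -0.36 (SE 0.099, adjusted p = 0.522). Birc5 was separate as well, its Sle2c1_Bs arrays all reading 2.49 to 2.53 units, and differed by -0.43 (adjusted p = 0.71).

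Ndc80, a kinetochore gene not called between cell types, read 1.09, 1.00, 1.00 and 0.74 units in B6_Bs, while 3 of 4 Sle2c1_Bs arrays lay at the floor and the other read 0.72. The groups were therefore separate by a narrow margin, and the difference was -0.41 (SE 0.106, adjusted p = 0.42). Hmmr, which links the spindle poles to the microtubule cytoskeleton, read 1.69, 1.82, 1.35 and 1.54 units in B6_Bs and 1.22, 0.68, 1.21 and 0.64 in Sle2c1_Bs. In B1a it read 0.91 and 1.15 on B6 arrays 2 and 4, with the others at the floor, and 1.03, 0.51 and 0.83 in Sle2c1, with array 2 at the floor. Its Bs difference was -0.66 (SE 0.188, adjusted p = 0.551), but the probe set with the highest floored mean gave 0.14 in the other direction. Mki67 differed by -0.26 (SE 0.151, adjusted p = 1) with groups that overlapped, although each Sle2c1_Bs array lay below the B6_Bs array of the same number. The 4 genes with differences above 0 were Cenpe (0.26), Ttk (0.14), Kif11 (0.05) and Pttg1 (0.05), none with an adjusted p below 1. Other probe sets gave -0.2375 for Cenpe, -0.02 for Ttk and -0.6725 and -0.3613 for Kif11, but 0.1025 and 0.0725 for Pttg1, none called.

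By role, the differences in Bs were below 0 in 7 of 7 cyclin and Cdk genes (median -0.40), 6 of 6 kinases and passengers (median -0.297), 6 of 6 cytokinesis genes (median -0.224) and both chromosome genes. They were below 0 in 7 of 8 spindle genes (median -0.292), 4 of 5 kinetochore genes (median -0.155) and 5 of 7 checkpoint and APC/C genes (median -0.175). Aurka, Plk1, Kif2c, Kif4 and Melk lay at the floor on all 4 Sle2c1_Bs arrays, so by construction their differences could not lie above 0. The difference of Kif4 is a lower bound of its size. The others also had B6_Bs arrays at the floor, and Foxm1 lay at it on 2 Sle2c1_Bs arrays, so their differences rest on few values.

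**Figure D4:**
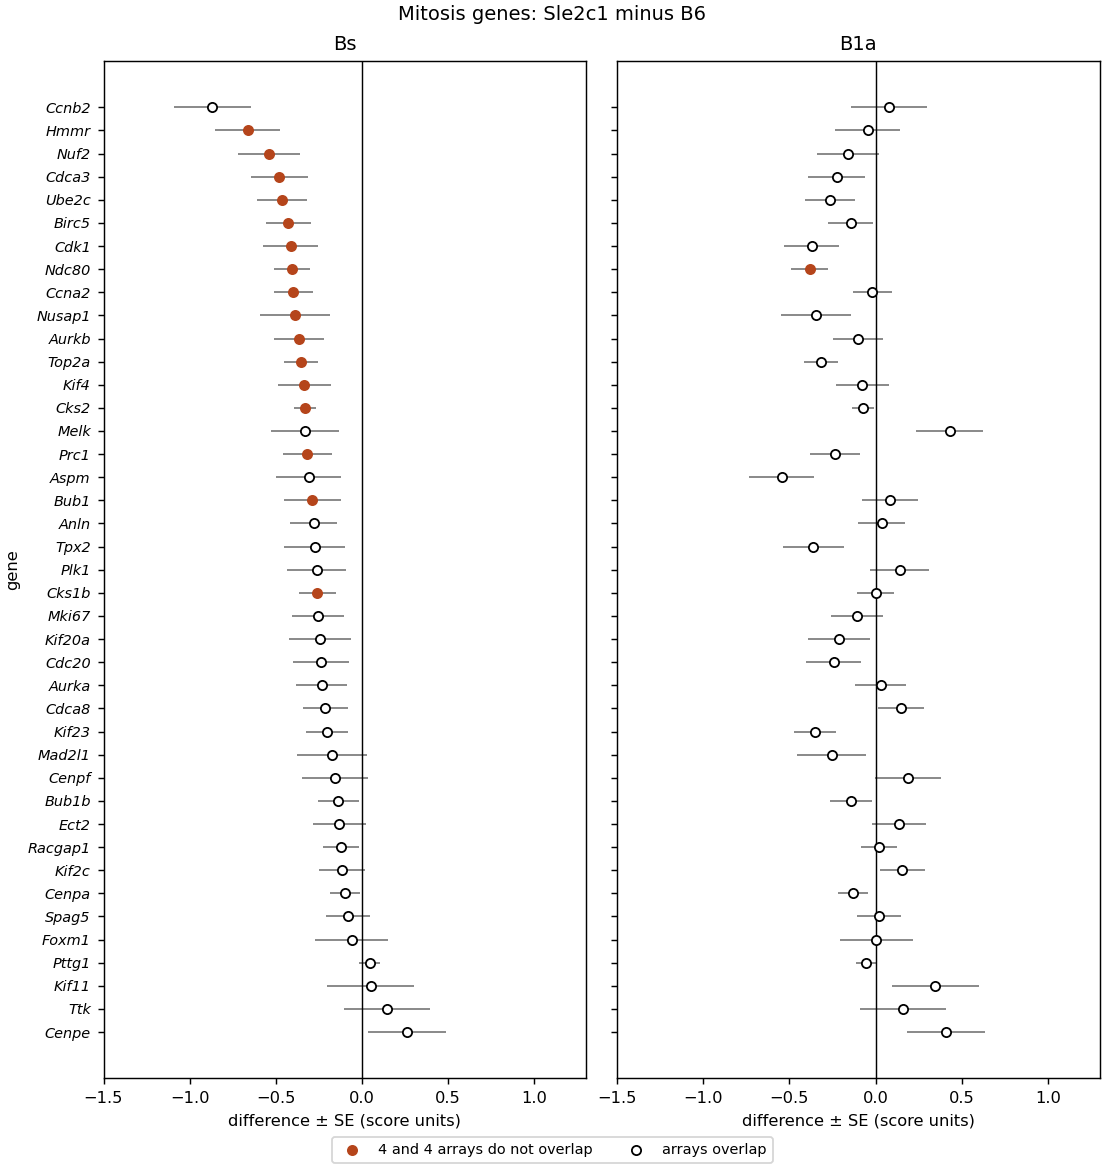
Difference between strains (Sle2c1 minus B6, horizontal axes, score units, with standard errors) for each of the 41 genes (vertical axis) in Bs and in B1a. Filled points mark genes whose 4 Sle2c1 arrays do not overlap the 4 B6 arrays, 16 in Bs and 1 (Ndc80) in B1a, and no gene passed an adjusted p of 0.05 in either.

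The third array of both Bs groups behaved differently from the rest. Mki67, Ttk, Cenpe, Kif11, Kif20a, Aspm, Ect2, Spag5 and Foxm1 were highest on array 3 in B6_Bs and also in Sle2c1_Bs, and these 9 are among 11 and 13 genes highest there. On B6_Bs 3, Kif11 read 2.50 units against 1.2 to 1.94 on the other 3 arrays, and Kif20a read 1.93 against 0.96 to 1.33. On the same array Ccna2, Cdk1, Birc5 and Top2a were the lowest of their group. Without both arrays numbered 3, the strains did not overlap for 26 genes in Bs (4.00% of all features lower), and for 31 (6.14%) without 4 arrays that stand apart over all genes (B6_Bs 1 and 3, Sle2c1_Bs 3 and Sle2c1_B1a 4). Fewer arrays make such separation easier by construction. No count of called genes in Bs moved above 0 when any 1 array was left out.

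**Figure D5:**
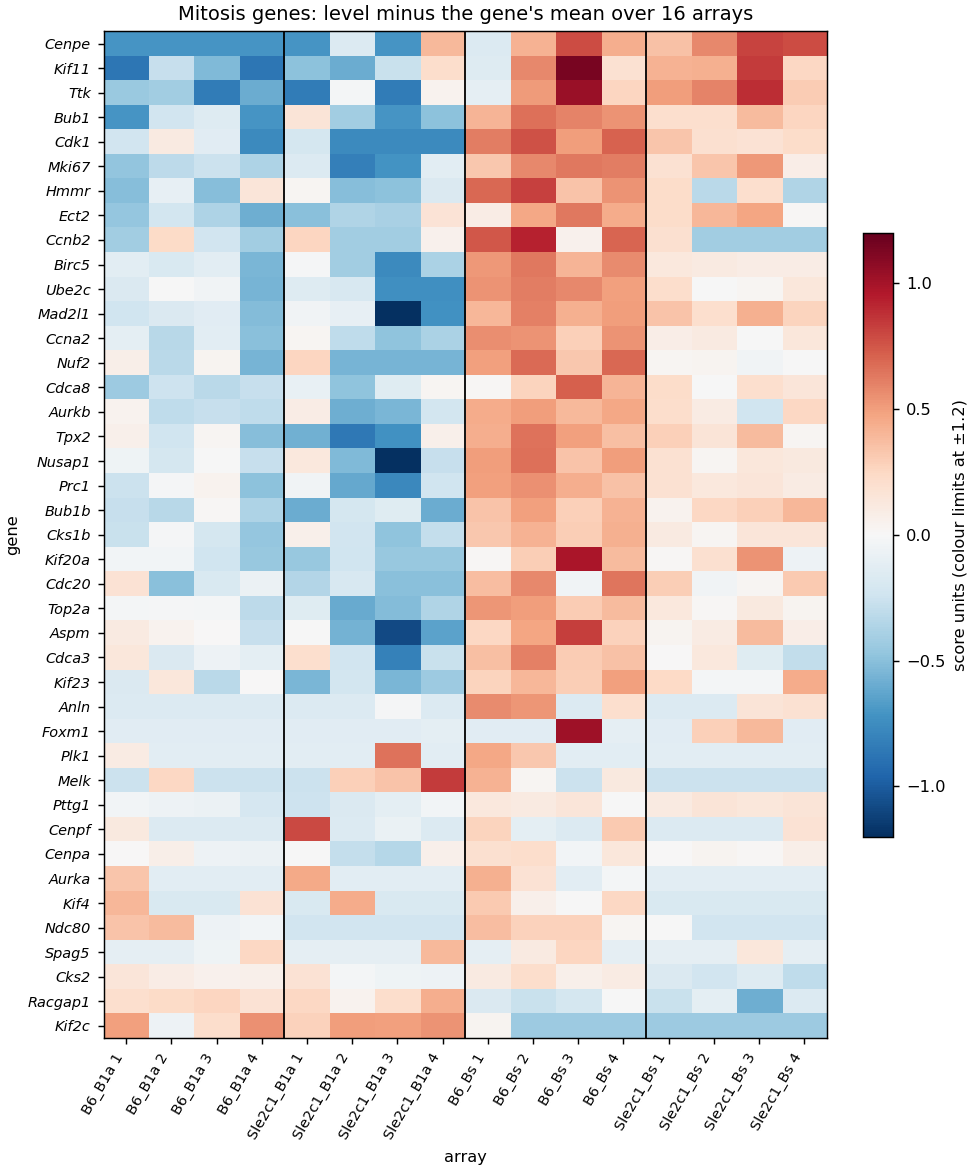
Level of each of the 41 genes (rows, ordered by the B6 difference between cell types) on the 16 arrays (columns), as the level minus the gene's mean over all arrays, in score units with colours limited at 1.2. Red is above and blue below the mean, and black lines part the groups. B6_Bs 3 is the highest of its group in 11 genes and the lowest in 21.

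In B1a cells the same strain comparison gave no called gene either, where 1.36% of all features were lower and 1.86% higher. The median difference over the 41 genes was -0.075 units, against 0.025 over all features, with 24 genes below 0 (43.3% of all features). At an unadjusted p under 0.05 there were 6 genes, of which 5 had negative differences (7.58% of all features). Ndc80 alone was separate between the strains (4.12% of all features lower), and 0 genes showed the reverse (4.21%). It read 1.06, 1.10, 0.66 and 0.69 units in B6_B1a and was at the floor throughout Sle2c1_B1a, a difference of at least 0.38 in size (SE 0.106, adjusted p = 0.0703). With replicate number as a block over the 16 arrays it passed (adjusted p = 0.0424), as it did without B6_B1a 3 (adjusted p = 0.0455) or B6_B1a 4 (adjusted p = 0.0438).

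Top2a, Aspm, Kif23 and Cdk1 followed in order of adjusted p, with differences of -0.32 (adjusted p = 0.111), -0.54 (adjusted p = 0.151), -0.35 (adjusted p = 0.156) and -0.37 (adjusted p = 0.257). For Top2a, the mean of its probe sets gave 0.09 in the other direction (adjusted p = 0.723). Single arrays decided several of these calls. Without B6_B1a 4 there were 3 genes called lower (Ndc80, Top2a and Cdk1), without Sle2c1_B1a 1 there were 2 (Top2a and Aspm), and without B6_B1a 3 or Sle2c1_B1a 4 there was 1. The calls over all 22727 features moved as well. Features called lower were 308 with all arrays, 217 to 484 with single arrays left out, and 484 without Sle2c1_B1a 1. Sle2c1_B1a 1 was the highest of its group in 19 genes. Melk, a kinase of dividing and progenitor cells, was the 1 gene with an unadjusted p under 0.05 and a difference above 0, and it was not called. It read 1.00 on B6_B1a 2 with the other 3 at the floor, and 1.03, 1.09 and 1.59 on Sle2c1_B1a arrays 2 to 4 with array 1 at the floor. The groups overlapped and the difference was 0.43 (SE 0.196, adjusted p = 0.281). In Bs, Melk read 1.17, 0.77 and 0.87 on B6 arrays 1, 2 and 4, with array 3 and all Sle2c1 arrays at the floor.

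Whether the strain differences depend on cell type was tested as an interaction, the Bs difference minus the B1a difference, which uses the same 16 arrays. No mitosis gene was called, where 0.26% of all features were lower and 0.154% higher, and 5 genes had an unadjusted p under 0.05, all below 0 (3.44% of all features). The median was -0.202 units, against -0.005. Ccnb2 had the smallest adjusted p, with an interaction of -0.95 units (adjusted p = 0.41), from strain differences of -0.87 in Bs and 0.08 in B1a. Next came Cks2 (-0.26, adjusted p = 0.477), Melk (-0.76, adjusted p = 0.509), Ccna2 (-0.38, adjusted p = 0.631) and Hmmr (-0.62, adjusted p = 0.639). With no floor the Hmmr value was 0.73 in the other direction (adjusted p = 0.951). The differences in Bs are thus not shown to be larger than those in B1a.

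Related gene lists show how far the pattern reaches. Of 51 tested genes from a list of other mitotic genes (55 listed), 18 were lower and 1 higher in B1a in B6, and 18 and 2 in Sle2c1. Hmgb2, a chromatin protein of cycling cells, fell by 0.64 and 0.40 units, Bora, a cofactor for Plk1 activation, by 0.31 and 0.33, and Zwilch, a checkpoint protein, by 0.59 and 0.78. In the strain comparison in Bs 0 of 51 were called, with a median of -0.115 and 44 below 0 (40.9% of all features). Kntc1, a partner of Zwilch at the kinetochore, came nearest, reading 1.07 ± 0.051 units (SD, n = 4) in B6_Bs and 0.526 ± 0.0625 in Sle2c1_Bs (-0.54, adjusted p = 0.0863). In B1a the centromere gene Cenpp was higher in Sle2c1 by 1.25 units (2.05 ± 0.0741 against 0.807 ± 0.232, n = 4 each, adjusted p = 1.55e-05) and the condensin gene Ncapd2 lower by at least 0.62 (adjusted p = 0.0459). The Cenpp effect differed between cell types (interaction -1.005, adjusted p = 0.00966).

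Subunits of the APC/C, the enzyme that Cdc20 activates, listed together with Fzr1 and Ube2s, showed no such shift. Of 14, Cdc27 and Anapc4 were lower in B1a in both strains, by 0.21 to 0.28 units, and the medians were 0.007 in B6 and 0.059 in Sle2c1. In the strain comparisons 0 of 14 were called, with medians of 0.011 in Bs and 0.015 in B1a. In Bs 5 of 14 were below 0 (40.9% of all features), among them Ube2s (-0.35) and Fzr1 (-0.2875). Among 14 tested genes of the DREAM, MuvB and E2F complexes, which repress or activate late cell cycle promoters, 4 were lower in B1a in B6, and 5 were lower and 2 higher in Sle2c1. The pocket protein Rbl1 fell by 0.34 and 0.31 units and E2f3 by 0.33 and 0.24. E2f2 was lower in Sle2c1_B1a than in B6_B1a (-0.38, adjusted p = 0.0432), and 0 of 14 were called between strains in Bs.

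Between B1a and Bs in B6, erythroid and germinal centre markers moved the way of the mitosis genes, and macrophage markers mostly the opposite way. Neutrophil, plasma cell and T or NK cell markers had calls in both directions. The part of these markers in the results was not tested. Of 7 erythroid genes tested (14 listed), 4 were lower in B1a in B6 and 2 in Sle2c1, led by Car2 (-2.08 and -2.01), and Gata1 and Rhag did not rise above the floor in B6_B1a. Their mean ran from 1.56 to 2.34 units on B6_Bs, 1.31 to 1.67 on Sle2c1_Bs, 0.967 to 1.15 on B6_B1a and 1.02 to 1.15 on Sle2c1_B1a. Between strains in Bs all 7 were below 0 (40.9% of all features), with a median of -0.469 and 0 called. Germinal centre B cell genes, 6 tested, were lower in B1a in 4 cases in B6 and in 2, with 1 higher, in Sle2c1. Their mean ran from 1.82 to 2.21 units on B6_Bs and from 1.51 to 1.69 on Sle2c1_Bs, without overlap. Of these 6, 5 were below 0 between strains in Bs with a median of -0.524 and 0 called, Gcsam coming nearest (-0.77, adjusted p = 0.0502), and S1pr2 lay at the floor on all Sle2c1_Bs arrays. In B1a their mean was 1.33 to 1.42 in B6 and 1.3 to 1.73 in Sle2c1. There Gcsam was higher in Sle2c1 (0.91, adjusted p = 0.00197), and its strain difference changed between the cell types (interaction -1.68, adjusted p = 0.00123).

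Neutrophil lineage genes, 12 tested, had 3 lower and 3 higher in B1a in B6, and 2 and 4 in Sle2c1. Their means were 1.26 to 1.49 units on B6_Bs and 1.08 to 1.48 on Sle2c1_Bs. Macrophage genes, 15 tested, were higher in B1a in 9 cases and lower in 1 in B6. Their means were 1.18 to 2.08 units on B6_B1a and 0.926 to 0.964 on Sle2c1_B1a, where 6 of them, Timd4 and C1qb included, lay at the floor on all arrays and 5 were called lower between strains. T and NK cell genes, 10 tested, had 3 lower and 2 higher in B1a in B6, and 2 and 1 in Sle2c1. On B6_Bs their means were 0.85 to 1.07 units, and on Sle2c1_Bs 0.688 to 0.928. Their means were 0.845 to 0.968 on B6_B1a and 0.637 to 0.971 on Sle2c1_B1a, and Cd28 lay at the floor on all Bs arrays. Plasma cell genes, 8 tested, had 2 lower and 2 higher in B1a in B6 and 1 and 1 in Sle2c1, with Jchain lower (-1.38 and -1.88) and Prdm1 higher (1.86 and 1.66).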

How the data were processed

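RNA was amplified with the NuGEN Ovation system and hybridised to 16 Affymetrix arrays, per the labels' protocols. The authors deposited 1 table of 45101 probe sets, and its values are a score: they behave like a log signal, but scale, base and centring are unknown (the sources used here do not give them), and each array has its own lowest value (-7.72 to -4.99), shared by 22.8% to 35.6% of its probe sets. Array medians were 0.68 to 1.12. The comparisons had been planned for log2 values, and the test was kept on the deposited score. No depth underlies arrays, so the number of arrays limits the precision.

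Each array's 40th percentile was taken, and the median of these, 0.495, served as a floor to which lower values were raised. A probe set was kept if at least 4 arrays put it above their own 40th percentile. Each gene was represented by its probe set of highest mean, named from the platform annotation with symbols updated through RefSeq (assembly GRCm38.p6). The mitosis genes had 93 probe sets, of which 81 passed. The 4 group means were fitted in 1 model with limma 3.58.1 (R 4.3.3, statmod 1.5.0), two-sided, with Benjamini-Hochberg adjustment over 22727 features. The procedure was tested on simulated data. Exact permutation tests compared 4 with 4 arrays for single genes.

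Replicate numbers come from the sample titles. Same-numbered Bs arrays of the 2 strains deviated together (correlations 0.109 to 0.617 over features, against -0.57 to 0.422 for different numbers). These ranges overlap and the labels do not say what the numbers mark, so taking the Bs samples as pairs is an inference. In B1a the correlations were -0.00768 to 0.168, and those arrays were not taken as pairs. The fit had no block, and the block was an alternative. The permutation with the Bs pairs kept was added after seeing the data.

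All mitosis genes may be named. Values on every array are given for Mki67, Top2a, Ccnb2 and the 6 genes with the smallest adjusted p of each comparison, and other lists are represented by up to 3 genes. The lists are other mitotic genes, APC/C subunits with Fzr1 and Ube2s, DREAM/MuvB/E2F genes, and cell markers. The markers are those of B, B1a, splenic B, germinal centre, plasma, erythroid, neutrophil, macrophage and T or NK cells. Members and lists were chosen with earlier results of these data known. Alternatives changed the filter, probe set, scaling, floor, form of the test, samples and block, or left out arrays. Testing only features above the floor, every probe set as its own feature, a block within the 8 Bs arrays alone and leaving out both Bs arrays numbered 3 were added after the data were seen.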

Additional observations from a re-analysis of the deposited data

Results flagged for a closer look

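Within the 4 groups, single arrays of mitosis genes stood far from the other 3 in 5 of 62 groups of values examined, where chance alone gives about 1 in 20. A further 14 groups with 2 or more arrays at the floor were not examined. Only some of the mitosis genes were screened in this way, so the 5 cases are not a count over the whole set. In B6_B1a, array 4 was low for Top2a (2.41 units, the others 2.70 to 2.71) and for Birc5 (1.85, the others 2.22 to 2.27). In Sle2c1_B1a, array 1 was high for Cks2 (2.76, the others 2.52 to 2.56). In B6_Bs, array 3 was low for Ccna2 (2.43, the others 2.68 to 2.70) and array 1 was low for Mki67 (2.23, the others 2.49 to 2.54).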

How the results depend on the processing

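The direction of the median over the 41 genes was negative under all alternatives in 4 comparisons, and between strains in B1a it ran from -0.178 to 0.00. Genes called lower between strains in Bs, 0 as reported, were 1 with no filter, 3 with a floor at 1, 1 with trend and robust options and 1 with only the 8 arrays compared. Genes in Bs without overlap, 16 as reported, were 31 without the 4 arrays in doubt and 26 without both arrays numbered 3. They were 11 with median centring, 13 after quantile normalization and 14 with a floor at 1. Genes called lower in B1a, 0 as reported, were 1 with median centring, 1 with trend and robust options and 1 with the replicate block, and 0 to 3 without single arrays. Genes without overlap in B1a, 1 lower and 0 higher as reported, were 2 lower after quantile normalization, after median centring and without the arrays in doubt, 0 lower with a floor at 1, and 1 higher with the mean of probe sets or no floor. Between cell types in B6, genes lower were 12 with no floor and 17 among genes above the floor. Genes higher in B6, 2 as reported, were 0 with the mean of probe sets and 1 with median centring, no floor, a floor at 1 or only genes above the floor, and 1 to 2 without single arrays. Those higher without overlap in B6 were 0 with the mean of probe sets and 2 without the arrays in doubt. In Sle2c1, genes lower were 9 with no floor and 12 among genes above the floor, and genes higher were 1 with the mean of probe sets. By construction, fewer genes tested limit the counts among genes above the floor, and fewer arrays make separation without overlap easier. For the other counts, calls without single arrays included, the cause was not tested. This section gives no shares of all features beside these counts.

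Single genes turned direction in 12 cases: Hmmr between strains in Bs with the probe set of highest floored mean (0.14), and in the interaction with no floor (0.735). The others between strains in B1a were Top2a with the mean of probe sets (0.0919), Mki67 without Sle2c1_B1a 2 (0.0158), and Ccnb2 after quantile normalization (-0.0165), median centring (-0.02), no floor (-1.285) and without Sle2c1_B1a 1 (-0.0525). The rest were the Top2a interaction with median centring (0.01), without B6_B1a 4 (0.0333) and without Sle2c1_B1a 1 (0.0483), and Ccnb2 between cell types in Sle2c1 with no floor (-2.1975). Without single arrays, these values ran from -0.2142 to 0.0158 for Mki67 in B1a, from -0.0525 to 0.2233 for Ccnb2 in B1a and from -0.105 to 0.0483 for the Top2a interaction. None of the turned values passed the test. Of the other gene values under alternatives, 815 kept direction and side of the threshold, 12 newly passed and 11 ceased to pass.

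With a replicate block, either over the 16 arrays or cell type by cell type, 0 mitosis genes were called between strains in Bs, as without pairing. The block over the 16 arrays gave 26 lower and 2 higher genes between cell types in B6 and 23 and 3 in Sle2c1, and apart from Ndc80 in B1a it changed no call of a gene described with all its values. Scaling moved the split of all called features. Between strains in Bs it was 28 higher and 7 lower as reported, 12 and 6 after quantile normalization, and between cell types in Sle2c1 2436 and 3274, against 1566 and 3232 with median centring. Signal near the floor limits 26 of the 41 genes.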
